A study of Mus musculus with 4 samples.

Results

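BMP and activin signalling was followed through 10 genes in 4 kinds of nonparenchymal cell from mouse livers with and without carbon tetrachloride (CCl4) injury. The genes were picked by name from the 25149 in the count tables: the bone morphogenetic protein (BMP) genes Bmp2, Bmp4, Bmp5 and Bmp6, the activin subunit genes Inhba and Inhbb, the receptor gene Acvrl1, the secreted modulator gene Bmper, and the inhibitory SMAD genes Smad6 and Smad7. The study profiled single cells of 4 wild-type male mice on the BD Rhapsody platform, which captures each cell in a microwell and counts its transcripts by unique molecular identifiers (UMIs). CCl4 is a solvent that liver cells turn into a toxic radical, and repeated doses scar the liver. For the 2 CCl4 mice it was mixed 1 to 9 with corn oil and injected into the peritoneum at 10 µl per g of body weight, 2 times a week for 5 weeks, and the 2 control mice received corn oil. The mice were 8 to 10 weeks old, and tissue was taken 48 h after the last dose. Livers were digested with pronase and collagenase and hepatocytes were spun out at 50 × g, so the data describe the cells left in suspension and not whole liver.

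The 4 cell types were gated by marker UMIs among cells that had 200 or more genes and no more than 25% of UMIs from mitochondrial genes. The endothelial gate needed 5 UMIs in all of Kdr, Ptprb and Egfl7, the stellate gate 5 of Reln, Colec11 and Lrat, the Kupffer gate 5 of Clec4f, and the monocyte gate 3 of Chil3, F13a1 and Vcan with at most 2 of Clec4f. Of 25861 cells kept, 20685 fell in exactly 1 gate, 16537 of them endothelial, 930 stellate, 892 Kupffer and 2326 monocyte cells. Cells in 2 or more gates, 283 to 883 per library, were dropped. Cells in both the endothelial and the stellate gate numbered 313 and 369 in corn oil and 152 and 45 in CCl4. The stellate cells kept were 179, 145, 462 and 144. Cells in both the endothelial and the Kupffer gate numbered 387, 611, 217 and 101, beside 217, 222, 228 and 225 Kupffer cells kept. The drop was thus larger against the cells kept in corn oil than in CCl4. Its part in the stellate and Kupffer changes was not tested. Each gate was led by the cell type of its name: markers with no part in the gate made up 1.21 to 1.52% of UMIs in the endothelial gate, 1.55 to 3.18% in the stellate gate, 1.91 to 2.27% in the Kupffer gate and 2.10 to 3.22% in the monocyte gate, with 10 of 10 detected in each. The libraries held 45408857 to 55529871 UMIs and shared 48 to 74 cell indices per pair, where 42 to 62 would be drawn at random. The monocyte gate held 43 and 23 cells in the corn oil mice and 911 and 1349 in the CCl4 mice, so its corn oil values rest on few cells.

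BMPs and activins are dimeric ligands of the TGF-beta superfamily. They bring together type I and type II receptor kinases, and the type I receptor then phosphorylates SMAD proteins that enter the nucleus and switch on target genes such as the Id genes. In the liver, BMP2 and BMP6 from the sinusoidal endothelium act on hepatocytes to raise hepcidin, the hormone that limits iron uptake, while BMP9 (the product of Gdf2) and BMP10 from stellate cells signal through ALK1, the product of Acvrl1. SMAD6 and SMAD7 are induced by these pathways and hold them in check.

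The promoters of 3 members that changed in the endothelial gate (Inhbb, Bmper and Bmp6) and of Smad6, the member with the rarest motif, are shown first. Each runs 5′ to 3′ from 250 bases before to 50 bases after the RefSeq start on GRCm38.p6. RefSeq promoters matched 7 of the 10 genes, not Bmp2, Acvrl1 or Smad7. The search covered 9 motifs on both strands. Of these 3 are SMAD motifs: GGCGCC, found in 11.9% of 32851 promoters of this length, the SMAD box CAGAC, found in 49.6%, and GTCTAGAC, found in 0.213%, which holds no CAGAC. The other 6 were the AP-1 site TGANTCA (7.81%), the cAMP response element TGACGTCA (1.79%) and the shorter TGACG that it contains (20.8%), the E-box CANNTG (72.3%), the YAP/TEAD site GGAATG (14.7%) and the sterol element TCACNCCAC (1.24%). Inhbb is at chr1:119422199-119422498 on the minus strand, Bmper at chr9:23222826-23223125 on the plus strand, Bmp6 at chr13:38345466-38345765 on the plus strand and Smad6 at chr9:64022010-64022309 on the minus strand. Capitals mark matches of the SMAD motifs alone.
Inhbb: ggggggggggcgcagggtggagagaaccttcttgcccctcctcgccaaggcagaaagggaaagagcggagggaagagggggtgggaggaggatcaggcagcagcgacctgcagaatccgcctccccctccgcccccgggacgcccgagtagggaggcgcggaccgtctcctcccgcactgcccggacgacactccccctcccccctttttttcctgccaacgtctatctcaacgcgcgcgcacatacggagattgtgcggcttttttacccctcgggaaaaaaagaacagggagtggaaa
Bmper: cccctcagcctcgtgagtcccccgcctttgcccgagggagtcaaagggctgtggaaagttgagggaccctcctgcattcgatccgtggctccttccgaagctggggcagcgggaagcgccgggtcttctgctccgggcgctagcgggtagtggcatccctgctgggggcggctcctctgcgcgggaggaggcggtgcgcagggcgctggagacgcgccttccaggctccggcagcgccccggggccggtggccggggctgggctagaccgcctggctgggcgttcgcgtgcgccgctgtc
Bmp6: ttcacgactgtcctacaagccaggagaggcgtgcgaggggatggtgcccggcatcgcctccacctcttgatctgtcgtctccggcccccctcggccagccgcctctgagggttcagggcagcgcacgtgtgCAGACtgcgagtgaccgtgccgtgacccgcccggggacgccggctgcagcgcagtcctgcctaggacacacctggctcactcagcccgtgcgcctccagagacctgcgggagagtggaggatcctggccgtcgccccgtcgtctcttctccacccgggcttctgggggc
Smad6: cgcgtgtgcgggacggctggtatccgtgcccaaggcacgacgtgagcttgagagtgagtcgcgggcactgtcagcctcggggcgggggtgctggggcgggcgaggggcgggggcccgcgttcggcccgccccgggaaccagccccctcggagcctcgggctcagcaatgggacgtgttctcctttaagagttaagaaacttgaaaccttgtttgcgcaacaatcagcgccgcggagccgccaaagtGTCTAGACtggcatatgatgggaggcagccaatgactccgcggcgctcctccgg
The Inhbb and Bmper windows held none of the 9 motifs. The Bmp6 window held 1 CAGAC, beginning 119 bases before the RefSeq start, and the Smad6 window held 1 GTCTAGAC, beginning 4 bases before it. In the GENCODE annotation Bmp6 begins earlier, at chr13:38345107, so the whole Bmp6 window lies inside that annotated gene. The Bmp6 window also held 2 E-boxes and the Smad6 window 1, left in lower case, and neither window matched any of the remaining motifs. A match describes letters in this window and not a measured binding site.

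UMIs were summed over the cells of a gate in each mouse, so that the mouse and not the cell was the replicate, and are given as CPM, each count scaled to a common normalised total of the gate. Each change is a log2 difference of CCl4 from corn oil with its standard error, and each adjusted p comes from edgeR's quasi-likelihood test with Benjamini-Hochberg adjustment over every gene tested in that gate. A gene counted as changed when that value was under 0.05. With 2 mice a group no exact permutation test of a single gene can go below p = 0.333, so each call leans on the spread that edgeR shares across genes.

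The ligand genes were divided between the cell types. Bmp2, Bmp6 and Inhbb had their highest levels in the endothelial gate and Bmp4, Bmp5 and Inhba in the stellate gate, in corn oil and in CCl4 alike. Under CCl4, Inhbb and Bmper rose and Bmp6 fell in the endothelial gate, Bmper rose and Bmp2, Bmp4 and Bmp5 fell in the stellate gate, and Smad7, Bmp2 and Bmp6 fell in the Kupffer gate. In the endothelial gate 2 of 10 members rose and 1 fell, where 5.42% of all genes were called, 2.85% as higher and 2.57% as lower in CCl4. In the stellate gate 1 of 7 members tested rose and 3 fell, where 10.2% of all genes were called, 5.29% higher and 4.91% lower. In the Kupffer gate 3 of 6 members tested fell, where 15.3% of all genes were called, 7.55% higher and 7.79% lower. In the monocyte gate 0 of 5 members tested passed edgeR's adjusted threshold, against 5.47% of all genes (2.4% higher and 3.06% lower), and 2 of the 5 had an unadjusted p under 0.05, as had 24.3% of all genes. DESeq2 called Bmp2 there. With 2 mice a group, groups that do not overlap are common: CCl4 values lay wholly above corn oil values for 27.9% of genes tested in the endothelial gate, 28.6% in the stellate gate, 30.3% in the Kupffer gate and 31.9% in the monocyte gate, and wholly below for 26.8, 27.3, 30.4 and 23.5%.

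**Figure D1:**
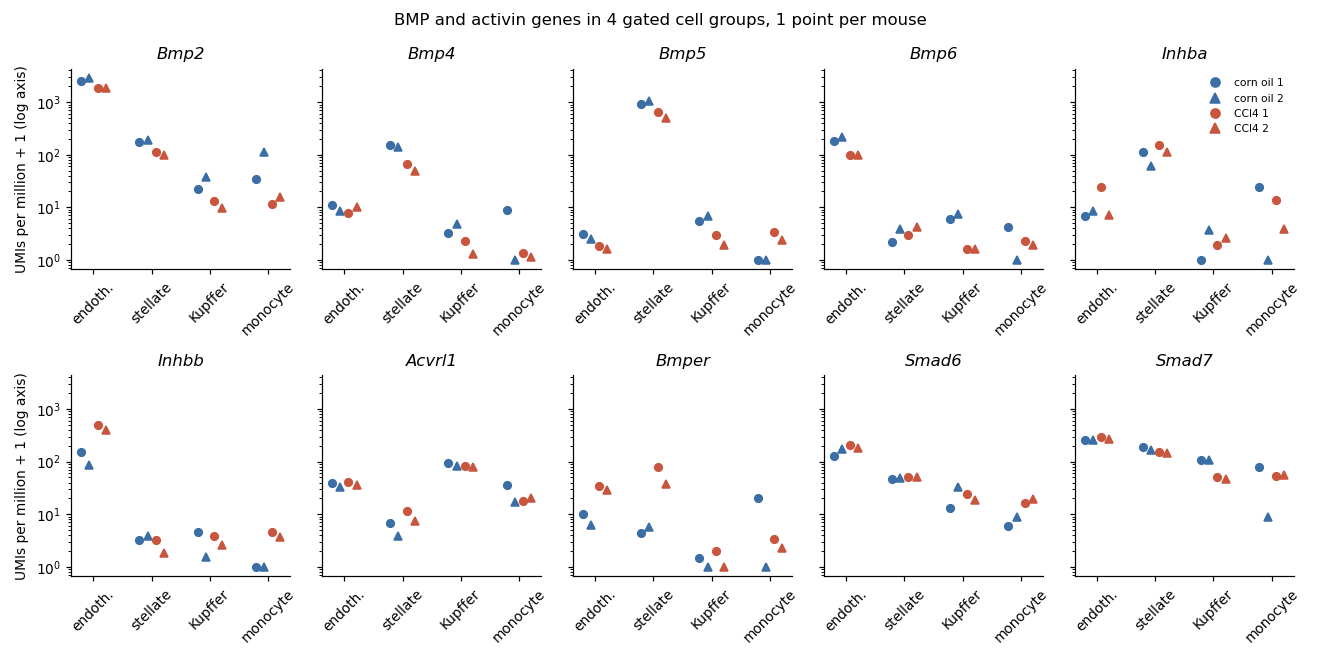
Level of each of the 10 genes (CPM + 1, log axis) in the endothelial, stellate, Kupffer and monocyte gates, with 1 point per mouse for corn oil and CCl4. Bmp5 stands at 509 to 1039.5 CPM in the stellate gate and under 6 in the other gates, while Inhbb stands at 83.9 to 489 CPM in the endothelial gate and under 4 elsewhere.

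Bmp2, a BMP that endothelial cells send to hepatocytes, was detected in nearly every endothelial cell. It stood at 2569.5 and 2915 CPM in the corn oil mice and at 1855 and 1832 CPM in the CCl4 mice. The groups did not overlap. Its fall of 0.57 ± 0.14 (SE) on the log2 scale missed edgeR's threshold (adjusted p = 0.0635) and passed that of DESeq2 (adjusted p = 0.00257) and that of an edgeR fit with the replicate number as a block (adjusted p = 0.0230). The share of endothelial cells with at least 1 Bmp2 UMI was 97.0 and 97.4% in corn oil and 95.2 and 95.8% in CCl4, beside 10.7 to 20.3% of Kupffer-gated cells. Endothelial cells carried 79.8 to 91.0% of all Bmp2 UMIs of a library.

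In the stellate gate Bmp2 was present at a lower level, 177 and 187 CPM in corn oil and 113 and 99.6 CPM in CCl4, again with no overlap. It fell by 0.77 ± 0.18 on the log2 scale (edgeR adjusted p = 0.0322). The call was lost without either CCl4 mouse (adjusted p = 0.227 without CCl4 1 and 0.257 without CCl4 2), with DESeq2 (adjusted p = 0.0873), in cells thinned to 2000 UMIs (a fall of 0.58, adjusted p = 0.166), without the 5% deepest cells (adjusted p = 0.0513) and in the joint fit of all 16 sums (adjusted p = 0.225). Bmp2 in stellate-gated cells was 5.20 to 7.04% of its endothelial level, while the median of 10 endothelial marker genes in those cells was 0.561 to 1.52% of theirs. Summed, these 10 markers were 0.0332 and 0.0370% of stellate-gated UMIs in corn oil and 0.0145 and 0.0128% in CCl4, lower in CCl4 as Bmp2 was, and their part in the result was not tested. In stellate-gated cells with no UMI of the other gates' genes it was 5.30 to 8.46%, and it fell by 0.95 (edgeR adjusted p = 0.0243).

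The Kupffer gate gave another picture. Bmp2 stood there at 21.1 and 36.2 CPM in corn oil and 12.1 and 8.85 CPM in CCl4, and fell by 1.43 ± 0.33 (edgeR adjusted p = 0.0220). These levels were 0.476 to 1.20% of the endothelial level, beside 0.504 to 1.44% for the median endothelial marker in the same cells. In Kupffer-gated cells free of the other gates' genes the fall was 0.80 and was not called (edgeR adjusted p = 0.363), and it was also lost without corn oil 2 (adjusted p = 0.0806), without CCl4 2 (adjusted p = 0.121) and without the 5% deepest cells (adjusted p = 0.0531). All 10 endothelial markers were detected in the Kupffer gate, at 0.0768 and 0.0728% of UMIs in corn oil and 0.0494 and 0.0537% in CCl4. Their part in the result was not tested.

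Bmp6, the other endothelial BMP of the iron pathway, fell in the endothelial gate to about the same level in both CCl4 mice. It stood at 181 and 212 CPM in corn oil and at 99.5 and 98.1 CPM in CCl4, a change of -0.99 ± 0.14 on the log2 scale (edgeR adjusted p = 0.0142). Every corn oil value lay above every CCl4 value. The share of endothelial cells with a Bmp6 UMI was 55.4 and 55.5% in corn oil and 45.3 and 43.9% in CCl4, although the CCl4 cells were deeper (median 6778 and 6148 UMIs against 5194 and 4243). In cells thinned to 2000 UMIs it was 28.6 and 31.3% against 17.8 and 17.6%, leaving out cells below that depth. Among Kupffer-gated cells, which were deeper still, 0.877 to 4.50% had a UMI of Bmp6. Without CCl4 1 the endothelial change was -1.02 and without CCl4 2 it was -0.98, and neither passed (adjusted p = 0.0838 and 0.0668).

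Bmp6 was called in the Kupffer gate on very few molecules, 11 and 11 UMIs in corn oil and 2 and 2 in CCl4. The ratio of the summed counts was 0.117 (exact 95% interval 0.0294 to 0.345, counting error only), and the fitted change was -3.07 ± 0.66 (edgeR adjusted p = 0.0162). It was lost on leaving out any 1 of the 4 mice (adjusted p = 0.0551 to 0.170) and with DESeq2 (adjusted p = 0.0706). As a share of the endothelial level it was 2.79 and 2.89% in corn oil and 0.647 and 0.613% in CCl4, and the median endothelial marker was 1.26 and 1.44% and then 0.504 and 0.512%. The difference of the Bmp6 change between the Kupffer and endothelial gates was -2.10 ± 0.56 and was not called (edgeR adjusted p = 0.0765, where 2.52% of all genes were).

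Bmp5 and Bmp4 had their highest levels in the stellate gate. Bmp5, a close relative of Bmp6, stood at 930.1 and 1039.5 CPM in corn oil and 653 and 509 CPM in CCl4 in the stellate gate, and 84.7 to 90.0% of stellate cells had a UMI of it, against 0.358 to 0.851% of endothelial cells. It fell by 0.76 ± 0.20 on the log2 scale (edgeR adjusted p = 0.0415), without overlap between the groups. The call was lost without corn oil 2 (adjusted p = 0.0714), without CCl4 1 (0.172) and without CCl4 2 (0.294), in cells with no UMI of the other gates' genes (a fall of 0.73, adjusted p = 0.0781) and in thinned cells (a fall of 0.34, adjusted p = 0.284). It was also lost at 15% mitochondrial UMIs (adjusted p = 0.0778), without the 5% deepest cells (0.0711) and in the joint fit of all 16 sums (0.0564). CCl4 1 held 462 of the 930 stellate cells and the other mice 144 to 179. Summed, the 10 stellate markers were 2.96 and 3.18% of stellate-gated UMIs in corn oil and 1.82 and 1.55% in CCl4. These markers were lower in CCl4, as Bmp2, Bmp4 and Bmp5 were, and their part in the 3 falls was not tested. In the endothelial gate Bmp5 was under 2.2 CPM in all 4 mice.

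Bmp4, a close relative of Bmp2, stood at 154 and 141 CPM in stellate cells of corn oil mice and at 65.3 and 47.4 CPM in those of CCl4 mice. It fell by 1.36 ± 0.22 (edgeR adjusted p = 0.00621), the largest fall of a BMP gene in the stellate gate. Without CCl4 1 the fall was 1.63 (adjusted p = 0.0649), without CCl4 2 it was 1.16 (adjusted p = 0.0902), and in thinned cells 0.92 (adjusted p = 0.0505). The 10.0 and 7.55 CPM of the endothelial gate in corn oil and the 6.63 and 9.01 CPM in CCl4 overlapped. The endothelial gate held many more cells. It carried 44.0 and 30.9% of all Bmp4 UMIs of the corn oil libraries and 29.0 and 59.3% of those of the CCl4 libraries. The stellate gate carried 19.9, 14.3, 46.5 and 18.9%, and the dropped cells in 2 or more gates 32.2, 51.2, 21.1 and 18.2%. Whether the Bmp4 change differed between the stellate and endothelial gates was tested directly, and the difference of -1.13 ± 0.39 was not called (edgeR adjusted p = 0.225, where 0.942% of all genes were).

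**Figure D2:**
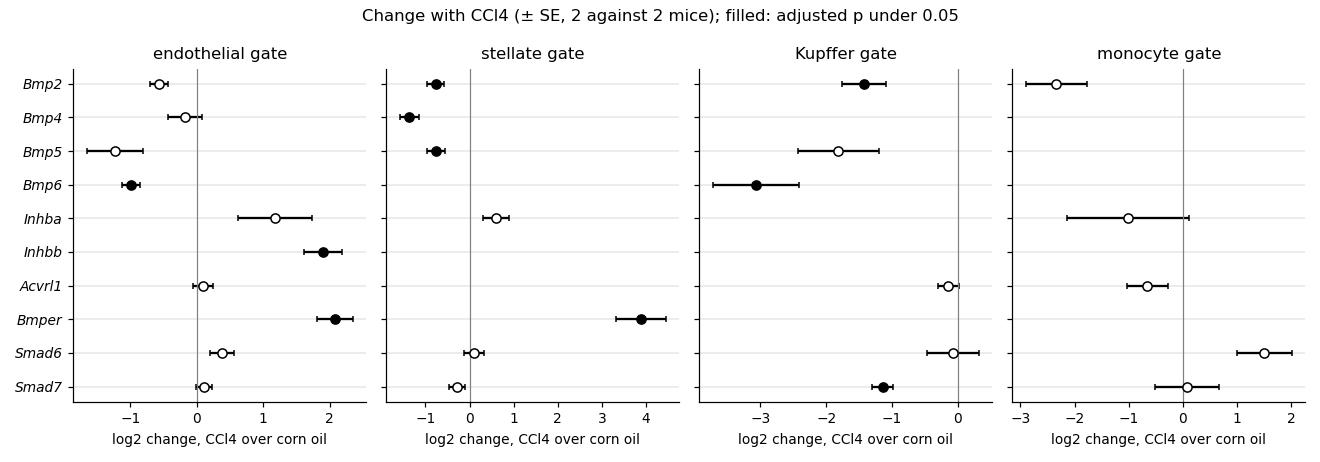
Log2 difference of CCl4 from corn oil with its standard error for each gene tested in each gate, filled where the edgeR adjusted p was under 0.05, with an axis of its own for each gate. In the endothelial gate the called changes run from -0.99 (Bmp6) to 2.08 (Bmper), in the stellate gate from -1.36 (Bmp4) to 3.88 (Bmper), and in the Kupffer gate all 3 lie below 0.

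Inhbb, which encodes the beta-B subunit of activin B, rose in endothelial cells of both CCl4 mice. Its level was 152 and 83.9 CPM in corn oil and 489 and 392 CPM in CCl4, a change of 1.9 ± 0.28 on the log2 scale (edgeR adjusted p = 0.0183). Both CCl4 values were above both corn oil values. The share of endothelial cells with an Inhbb UMI went from 43.2 and 24.9% in corn oil to 82.2 and 77.0% in CCl4, and in thinned cells from 23.1 and 13.4% to 50.9 and 47.5%. At full depth, which was greater in CCl4, the median was 3 and 2 UMIs a cell in the CCl4 mice against 0 in both corn oil mice. In thinned cells it was 1 and 0 in CCl4 against 0 in both corn oil mice. In the deeper Kupffer cells 0.450 to 3.51% had a UMI of it. The rise was 1.72 without CCl4 1 and was then not called (edgeR adjusted p = 0.0863), and it was called without each of the other 3 mice. Inhbb was counted 1 to 9 times per mouse in the stellate gate and 1 to 9 times in the Kupffer gate, and was tested in neither.

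Inhba, which encodes the beta-A subunit of activin A, had its highest level among the 4 gates in the stellate gate, with a large spread between mice. It stood at 113 and 59.7 CPM in stellate cells of corn oil mice and at 154 and 109 CPM in those of CCl4 mice. These groups overlapped, and the change of 0.60 ± 0.30 was not called (edgeR adjusted p = 0.244). Without corn oil 1 it was 1.16 and was called (adjusted p = 0.00714), and without each other mouse it was 0.23 to 0.83 and was not. In the endothelial gate Inhba read 5.84 and 7.36 CPM in the control mice and 23.6 and 6.14 CPM in CCl4 1 and CCl4 2, a change of 1.18 ± 0.55 (adjusted p = 0.258). Few cells made up these sums: 11, 22, 32 and 35 endothelial cells had an Inhba UMI, and the single highest cell held 123 of 174, 77 of 190, 165 of 569 and 26 of 124 UMIs. Without CCl4 1 the endothelial change was -0.12, and without CCl4 2 it was 1.84 and was called (adjusted p = 0.0256). Of all Inhba UMIs of a library, endothelial-gated cells carried 40.2 and 53.5% in corn oil and 31.4 and 30.8% in CCl4. Stellate-gated cells carried 22.9, 10.7, 33.4 and 33.3%, and the dropped cells in 2 or more gates 32.6, 23.4, 17.7 and 11.4%.

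Acvrl1 encodes ALK1, the type I receptor for BMP9 and BMP10. Per cell type it was highest in the Kupffer gate, with 94.5 and 81.6 CPM in corn oil and 80.1 and 78.7 CPM in CCl4, followed by the endothelial gate, with 37.5 and 32.3 CPM and 39.6 and 34.9 CPM. The Kupffer level was above the endothelial level by 1.39 ± 0.16 on the log2 scale in corn oil (edgeR adjusted p = 8.9e-06; 47.5% of all genes differed so) and by 1.20 ± 0.15 in CCl4 (adjusted p = 2.24e-05; 53.9%). No treatment change was called in any gate: -0.15 ± 0.16 in the Kupffer gate and 0.09 ± 0.15 in the endothelial gate. The monocyte level of 34.9 and 15.9 CPM in corn oil was not told apart from the endothelial level (-0.36 ± 0.28, adjusted p = 0.356), and in CCl4 it was lower, at 16.5 and 19.2 CPM (-0.98 ± 0.16, adjusted p = 0.000189). The stellate gate held 5, 2, 42 and 8 Acvrl1 UMIs and was not tested for it.

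Bmper, a secreted protein that binds BMPs outside the cell and can restrain or aid their signal, rose in both the endothelial and the stellate gate. Endothelial cells went from 9.00 and 5.27 CPM in corn oil to 33.1 and 27.5 CPM in CCl4, a rise of 2.08 ± 0.27 on the log2 scale (edgeR adjusted p = 0.0117). Without CCl4 1 the rise was 1.93 and not called (adjusted p = 0.0630). The share of endothelial cells with a UMI was 4.16 and 2.29% in corn oil and 18.9 and 15.1% in CCl4, and 1.97, 1.01, 6.76 and 5.43% in thinned cells, while it was at most 1.32% in the deeper Kupffer cells. Stellate cells went from 3 and 3 UMIs (3.42 and 4.71 CPM) to 306 and 45 UMIs (78.0 and 36.8 CPM), a fitted rise of 3.88 ± 0.56 (adjusted p = 0.00409). The ratio of the summed counts was 17.6 (exact 95% interval 8.02 to 48.4, counting error only). A UMI was found in 3 of 179 and 3 of 145 stellate cells in corn oil, and in 191 of 462 and 28 of 144 in CCl4. The stellate rise was 3.18 without CCl4 1 and was then not called (adjusted p = 0.0739), and it was 3.13 and called in thinned cells (adjusted p = 0.00137).

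The difference between the 2 rises of Bmper, 1.84 ± 0.74, was not called (edgeR adjusted p = 0.307). In corn oil the stellate level differed from the endothelial level by -1.02 ± 0.71, which was not called (adjusted p = 0.297), and in CCl4 by 0.83 ± 0.29, which was (adjusted p = 0.0365; 42.3% of all genes were). Endothelial marker genes, with 10 of 10 detected, were the shares of stellate-gated UMIs given above for Bmp2. Fibroblast markers, another mesenchymal source, were 0.0592 and 0.0480% of stellate-gated UMIs in corn oil and 0.0586 and 0.0973% in CCl4, with 8 of 8 detected. The part of either list in the result was not tested.

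**Figure D3:**
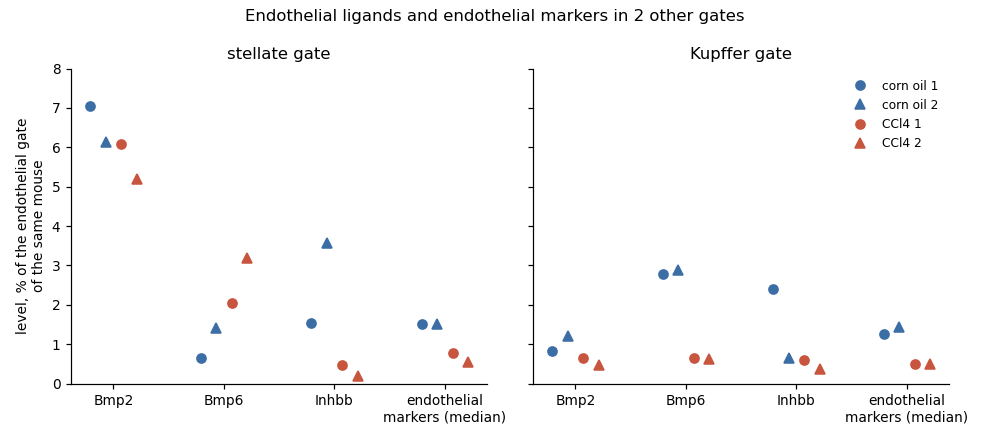
Level of Bmp2, Bmp6 and Inhbb in the stellate and Kupffer gates as a percentage of the endothelial level of the same mouse, beside the median of 10 endothelial marker genes, with 1 point per mouse. Bmp2 in the stellate gate lies at 5.20 to 7.04%, above the marker median in all 4 mice, while Bmp2 in the Kupffer gate lies at 0.476 to 1.20%.

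Smad7, an inhibitory SMAD that blocks type I receptors of both the BMP and the TGF-beta branch, fell in Kupffer cells. It stood at 104 and 105 CPM in corn oil and at 49.2 and 45.8 CPM in CCl4, a change of -1.14 ± 0.16 on the log2 scale (edgeR adjusted p = 0.00315). The 2 mice of each group were close to each other. The fall kept its call on leaving out each mouse in turn (-1.19 to -1.08, highest adjusted p = 0.0343) and was 1.46 in cells free of the other gates' genes (adjusted p = 0.00267). Thinning changed it: with cells gated after thinning to 2000 UMIs, which kept 314, 300, 115 and 149 Kupffer cells, the fall was 0.57 and not called (adjusted p = 0.274). Kupffer cells of CCl4 mice were deeper, with a median of 13570.5 and 14622 UMIs against 8689 and 7502.

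Smad7 was not called in the other gates. Endothelial cells held 259.6 and 262 CPM in corn oil and 289 and 271 CPM in CCl4 (a change of 0.10 ± 0.12, edgeR adjusted p = 0.657), and stellate cells 192, 168, 152 and 143 CPM (-0.29 ± 0.18, adjusted p = 0.362). The difference of the change between the Kupffer and endothelial gates was -1.19 ± 0.35 and was not called (adjusted p = 0.105), and in cells free of the other gates' genes it was -1.51 and was called (adjusted p = 0.00814). The stellate level of Smad7 differed from the endothelial level by -0.66 in corn oil (adjusted p = 0.0589) and by -0.98 in CCl4 (adjusted p = 0.00553).

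Smad6, the inhibitory SMAD that acts mainly on the BMP branch, was highest in the endothelial gate. It stood there at 125 and 173 CPM in corn oil and 203 and 184 CPM in CCl4, and the change of 0.38 ± 0.18 was not called (edgeR adjusted p = 0.257). Stellate cells held 45.7, 48.7, 50.5 and 50.6 CPM, and in corn oil their level differed from the endothelial level by -1.75 ± 0.23 on the log2 scale (adjusted p = 6.11e-05). Kupffer cells held 12.1, 31.6, 23.0 and 17.4 CPM, with overlapping groups.

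In the monocyte gate the members were scarce. Bmp2 read 33.2 and 111 CPM in corn oil (20 and 28 UMIs) and 10.4 and 14.5 CPM in CCl4 (58 and 116 UMIs), a change of -2.34 ± 0.57 that was not called (edgeR adjusted p = 0.0773). Its change differed from that of the endothelial gate by -1.64 ± 0.45 in the joint fit (adjusted p = 0.0351), where 11.8% of all genes were called. That call was lost without corn oil 2 (-0.72, adjusted p = 0.259), without either CCl4 mouse (adjusted p = 0.238 and 0.148) and in cells with at most 15% mitochondrial UMIs (-1.53, adjusted p = 0.0519). The library of corn oil 1 carried 12 Bmper, 14 Inhba and 5 Bmp4 UMIs in its 43 monocyte-gated cells, the last all in 1 cell, with stellate markers at 0.260% of UMIs, against 0.0422 to 0.0619% in the other 3, and fibroblast markers at 0.0834% against 0.00542 to 0.0170%. Kupffer markers were 0.255 and 0.333% of monocyte-gated UMIs in corn oil and 0.0315 and 0.0315% in CCl4, with 10 of 10 detected. The part of these markers in the monocyte changes was not tested. Smad7 read 47 and 2 UMIs in corn oil and 296 and 442 in CCl4, and its change of 0.07 ± 0.59 was not called.

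The joint fit also called 4 further differences that involve the monocyte gate, all for members with too few UMIs to be tested in that gate alone. Bmper had 12 and 0 monocyte-gated UMIs in corn oil and 13 and 10 in CCl4, and its change differed by -4.80 ± 0.87 from that of the endothelial gate (edgeR adjusted p = 0.00481) and by -6.64 ± 1.05 from that of the stellate gate (adjusted p = 0.00215, where 12.9% of all genes were called). Bmp4 had 5 and 0 UMIs and then 2 and 1, and differed from its endothelial change by -4.30 ± 1.28 (adjusted p = 0.0489). Without corn oil 1, which held all the corn oil UMIs of both genes in this gate, the 3 differences were 4.40, 3.21 and 4.002 and none was called (adjusted p = 0.906, 0.991 and 0.922). In cells free of the other gates' genes none of them was called either (adjusted p = 0.0803, 0.0527 and 0.935), and that of Bmp4 was also lost without either CCl4 mouse, at 15% mitochondrial UMIs and with doubled gates. Bmp5 had 0 UMIs in both corn oil mice and 13 and 11 in CCl4. Its change was called as different from that of the Kupffer gate (adjusted p = 0.0375, where 14.2% of all genes were), with no measure of size, and it was lost on leaving out any 1 of the 4 mice (adjusted p = 0.0892 to 0.302), at 15% mitochondrial UMIs, with doubled gates and in cells free of the other gates' genes.

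The levels of the 10 genes were compared between each pair of gates within corn oil and within CCl4, 120 contrasts in all, of which 86 were called. Of all genes, those called in corn oil were 36% for stellate against endothelial, 47.5% for Kupffer against endothelial, 39.7% for monocyte against endothelial, 41.1% for Kupffer against stellate, 30.2% for monocyte against stellate and 23.6% for monocyte against Kupffer, and in CCl4 42.3, 53.9, 55.7, 48.9, 53.8 and 33.4% in the same order. Bmp2, Bmp6, Inhbb and Smad6 were higher in the endothelial gate than in each of the other 3 gates under both treatments, and Bmp4, Bmp5 and Inhba were higher in the stellate gate than in each of the others. For Bmp5 the stellate level was 8.96 ± 0.21 above the endothelial level on the log2 scale in corn oil. For Inhbb the stellate level differed from the endothelial level by -5.65 ± 0.36 in corn oil and -7.97 ± 0.27 in CCl4. Neighbours that were not told apart included Inhbb between Kupffer and stellate cells (edgeR adjusted p = 0.987 in corn oil and 0.602 in CCl4) and Smad6 between monocytes and Kupffer cells in CCl4 (adjusted p = 0.389). Gates share their mice, and the 10 markers of each gate were all detected in each of the others.

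The endothelial gate was divided further by zone markers, because gene expression in sinusoidal endothelium varies between portal and central vein. Cells with 2 or more UMIs of Wnt2, Wnt9b, Rspo3 and Kit and none of Dll4, Efnb2, Ltbp4, Msr1 and Ntn4 were taken as pericentral-type (110 and 122 cells in corn oil, 28 and 21 in CCl4) and the reverse as periportal-type (1440, 1740, 1126 and 986 cells). Between the zones 5.62% of 11038 genes were called, and for 4.68% the CCl4 change was called as different between zones. Among members the fit called the level over both treatments higher in periportal-type cells for Bmper. It also called Bmp4 higher in pericentral-type cells, where it had UMIs in the corn oil mice only, and leaving out corn oil 2 ended that call.

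Bmp2 changed more in the pericentral-type cells. It read 2725 and 3294 CPM there in corn oil and 855 and 864 CPM in CCl4, against 2214 and 2595 CPM and then 1793 and 1546 CPM in periportal-type cells. In corn oil both pericentral values were above the periportal value of the same mouse, and in CCl4 both were below. The difference of the CCl4 change between zones was -1.28 ± 0.18 (edgeR adjusted p = 1.81e-10), and -1.42 to -1.19 on leaving out each mouse. Other genes also read differently between the treatments, among them Stab2 and Selp in both zones and Thbd in pericentral-type cells alone. Stab2, a sinusoidal scavenger receptor, read 1733 and 1604 CPM, here of the zone's own UMIs, in pericentral-type cells of corn oil mice and 538 and 565 in those of CCl4 mice, and 1270.5 and 1155 and then 898 and 877 in periportal-type cells. Of the central vein markers, Thbd read 957 and 683 and then 2893 and 2574 in pericentral-type cells, and 359 and 216 and then 325 and 215 in periportal-type cells. Selp read 121 and 118 and then 575 and 412 in pericentral-type cells, and 8.49 and 4.03 and then 47.8 and 34.9 in periportal-type cells. Among the pericentral-type cells the other 3 markers of that list had overlapping groups: Vwf at 48.4 and 75.1 and then 37.3 and 61.1, Rspo3 at 552 and 703 and then 1076 and 435, and Wnt9b at 308 and 412 and then 405 and 588. Wnt2 and Kit, which with Rspo3 and Wnt9b define these cells, were both lower in CCl4. Wnt2 read 425 and 407 and then 202 and 328, and Kit 645 and 910 and then 458 and 481. The part of these genes in the Bmp2 result was not tested.

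Within the endothelium Bmper was higher in periportal-type cells in all 4 mice. It read 20.6 and 9.38 CPM in periportal-type cells of corn oil mice and 44.9 and 31.3 CPM in those of CCl4 mice, with 2, 0, 2 and 1 UMIs in the pericentral-type cells. The fitted difference of pericentral from periportal level was -2.45 ± 0.53 (edgeR adjusted p = 0.00318). Bmp4 had 12 and 25 UMIs in pericentral-type cells of corn oil mice, in 5 and 9 cells, and 0 in both CCl4 mice, where 0 UMIs allow up to 3, or 15.98 and 22.9 CPM. Its level was higher there than in periportal-type cells by 2.27 ± 0.66 (adjusted p = 0.0357), a call lost without corn oil 2 (0.88, adjusted p = 0.727). In periportal-type cells Bmp4 had 29, 16, 94 and 33 UMIs. Its CCl4 change was called as different between zones (adjusted p = 0.000122), but with both pericentral CCl4 sums at 0 the fitted size is no measure. Leaving out corn oil 2 (adjusted p = 0.0643) or CCl4 1 (adjusted p = 0.0978) ended the call. Inhbb read 189, 64.0, 876 and 369 CPM in pericentral-type cells and 135, 76.6, 402 and 383 CPM in periportal-type cells, so that it was higher in CCl4 in both zones, and neither zone difference was called (adjusted p = 0.383 for the level and 0.432 for the change). Bmp6 read 170, 153, 82.9 and 34.8 CPM in pericentral-type and 167, 202, 110 and 114 CPM in periportal-type cells, again with no zone call.

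**Figure D4:**
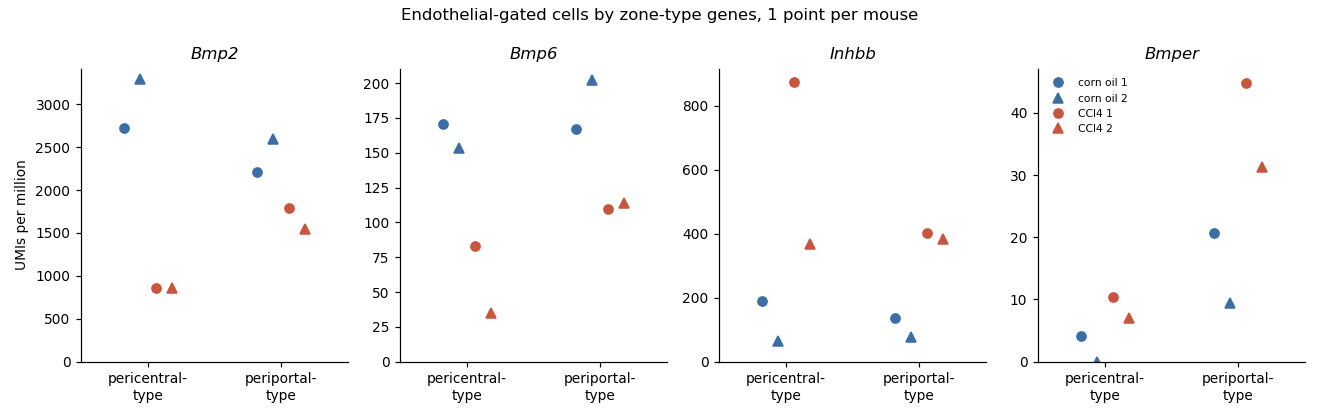
Level of Bmp2, Bmp6, Inhbb and Bmper (CPM) in pericentral-type and periportal-type endothelial-gated cells, with 1 point per mouse. For Bmp2 the pericentral points lie at 2725 and 3294 CPM in corn oil and at 855 and 864 CPM in CCl4, while the periportal points run from 1546 to 2595 CPM.

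The rest of the pathway was read from a list of 64 further genes, covering ligands, receptors, co-receptors, secreted modulators, SMADs and BMP target genes. Their calls come from the edgeR fit of each gate alone. The alternative fits given for the members, such as those with a mouse left out, were not read for them. In the endothelial gate 45 of them were tested, 2 rose and 1 fell, with a median log2 change of 0.12 beside -0.00 over all genes. Of all genes tested there, 2.85% were called higher and 2.57% lower. Msx2, a BMP-induced transcription factor, rose from 14 and 1 UMIs to 118 and 64 UMIs (a ratio of 15.8, exact 95% interval 9.35 to 28.9 for counting error only, and a fitted log2 change of 3.91 ± 0.73, edgeR adjusted p = 0.0337). Skil, which encodes the SMAD co-repressor SnoN, rose from 93.9 and 90.1 to 137 and 148 CPM (0.63 ± 0.13, adjusted p = 0.0411). Gja4, a connexin gene, fell from 515 and 498 to 279.8 and 327 CPM (-0.74 ± 0.13, adjusted p = 0.0318). Id1, a direct target of the BMP SMADs, read 88.1 and 64.8 CPM in corn oil and 152 and 119 CPM in CCl4 and was not called (0.83 ± 0.20, adjusted p = 0.0624).

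In the stellate gate 34 of the 64 were tested, 3 rose and 5 fell, with a median of -0.04 beside -0.00. Of all genes tested in this gate, 5.29% were called higher and 4.91% lower. On the receptor side Acvr2a, a type II receptor for activins and BMPs, fell from 413 and 402 to 99.2 and 92.3 CPM (-2.08 ± 0.18, edgeR adjusted p = 0.000544). The co-receptor gene Tgfbr3 fell from 401 and 545 to 215 and 211 CPM (-1.15 ± 0.20, adjusted p = 0.00902). Bambi, a pseudoreceptor that dampens signalling, fell from 139 and 154 to 75.2 and 79.2 CPM (-0.92 ± 0.19, adjusted p = 0.0177). Of 13 secreted modulators 5 were tested, of which 2 rose and 3 were not called. Fstl3, which binds and neutralises activins, rose from 7.99 and 6.28 to 81.1 and 59.6 CPM (3.29 ± 0.35, adjusted p = 0.00118), and Fstl1 rose from 436 and 455 to 891 and 941 CPM (1.04 ± 0.17, adjusted p = 0.00736). Those not called were Nbl1 (2.15, adjusted p = 0.0838), Crim1 (0.11, adjusted p = 0.785) and Twsg1 (-0.0396, adjusted p = 0.943). The target genes moved both ways: Tmem100, a gene induced by ALK1 signalling, fell from 184 and 140 to 24.995 and 36.8 CPM (-2.45 ± 0.26, adjusted p = 0.00111), Gja4 fell by 1.28 and Id2 rose by 0.78. The BMP9 gene Gdf2 read 1637 and 1696 CPM in corn oil and 1090 and 1051 CPM in CCl4 and was not called (-0.64 ± 0.18, adjusted p = 0.0531).

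In the Kupffer gate 30 were tested, 0 rose by edgeR and 6 fell, where 7.55% of all genes were called higher and 7.79% lower. The median log2 change of the 30 was -0.39 beside -0.01 over all genes. Of the 30, 14 had an unadjusted edgeR p under 0.05, as had 31.5% of all genes. Bmpr1a, the type I receptor ALK3, fell from 49.5 and 56.9 to 25.9 and 25.3 CPM (-1.05 ± 0.20, edgeR adjusted p = 0.0102). Id1 fell from 324 and 288 to 185 and 172 CPM (-0.78 ± 0.14, adjusted p = 0.00905). Crim1, which binds BMPs at the cell surface, fell from 67.5 and 68.3 to 46.6 and 30.8 CPM (-0.81 ± 0.22, adjusted p = 0.0402). The other 3 calls, Eng, Fstl1 and Gja4, rested on 4 to 26 UMIs per mouse. Endothelial markers were 0.0768 and 0.0728% of Kupffer-gated UMIs in corn oil and 0.0494 and 0.0537% in CCl4. Stellate markers were 0.0545 and 0.0559%, then 0.0292 and 0.0206%, and monocyte markers overlapped at 0.637 and 0.833%, then 0.778 and 0.590%. The part of these markers in the Kupffer changes was not tested. In the monocyte gate 27 were tested and 1 was called, where 5.47% of all genes were. This was Skil, which rose from 89.8 and 139 to 266 and 296 CPM (1.34 ± 0.26, edgeR adjusted p = 0.0434).

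**Figure D5:**
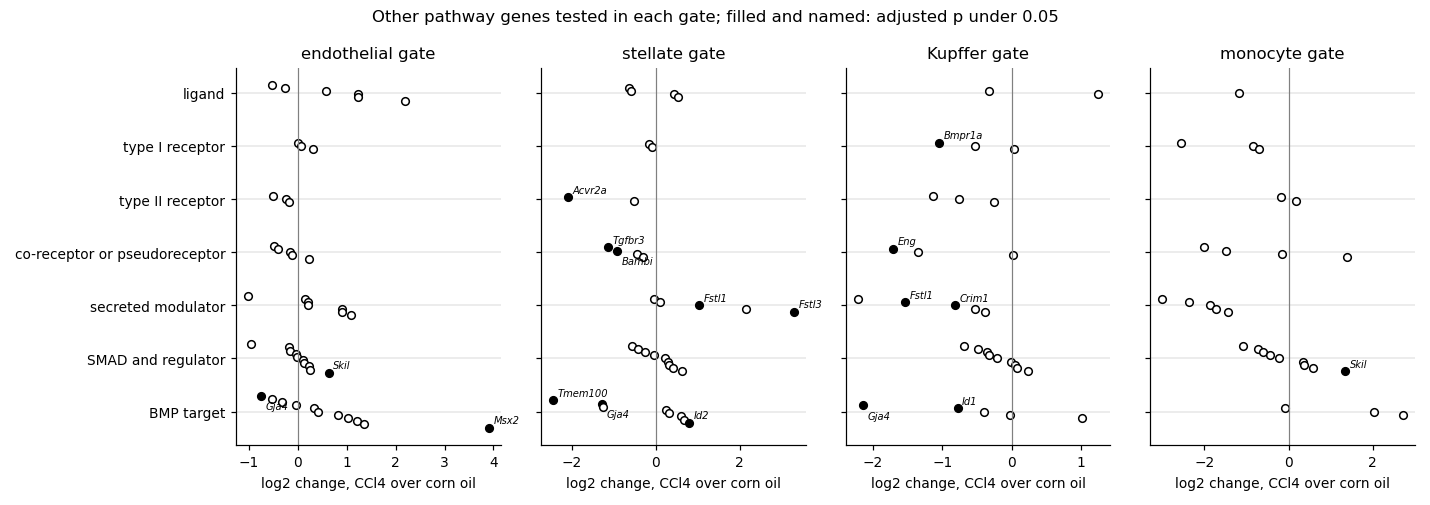
Log2 difference of CCl4 from corn oil for the further pathway genes tested in each gate, a row per role, filled and named where the edgeR adjusted p was under 0.05. In the stellate gate the type II receptor gene Acvr2a lies at -2.08 and the secreted modulator gene Fstl3 at 3.29, and in the Kupffer gate every called gene lies below 0.

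The genes most like each member in level were sought over the 16 sums of 4 gates and 4 mice among 10098 genes, by Pearson correlation of log2 CPM. These sums share mice and libraries, and the gates set most of the range, so the values are descriptions. Closest to Bmp2 were Zbtb46 (r = 0.989), Tspan7 (0.988) and Notch4 (0.985), and to Bmp6 Csgalnact1 (0.987), Ushbp1 (0.982) and Tek (0.980), the receptor for angiopoietins. Among the genes most like Bmp5 were the BMP9 gene Gdf2 (0.995) and Srpx2 (0.994), and Bmp4 lay nearest to Cadm3 (0.988), Nrxn2 (0.978) and Igsf10 (0.971). Inhbb had Dnah2os (0.981), Rasip1 (0.980) and Mal (0.976), and Inhba had Gpx8 (0.956), Unc5b (0.947) and Slc2a10 (0.944). The nearest gene to Bmper was Steap2 (0.930), to Acvrl1 Frmd4b (0.974), to Smad6 Mapk12 (0.953) and to Smad7 Arhgap35 (0.968).

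Gene positions and overlaps are given on GRCm38 from a later GENCODE release than the counts used. The genes that changed in the endothelial gate lie at chr1:119415465-119422248 (Inhbb), chr9:23223076-23485200 (Bmper) and chr13:38345107-38500302 (Bmp6), and the counts are of whole genes. Other annotated genes overlap Bmp6 (4930579J19Rik and Txndc5), Bmp4, Bmp5, Inhba and Acvrl1. No header or label says whether the counting used strand, so reads of such overlaps are uncertain.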

How the data were processed

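Single nonparenchymal cells of 4 mice, 2 given corn oil and 2 given CCl4, were sequenced. The files hold UMI counts per gene and cell as the authors deposited them. Per the file headers they were made with the BD WTA Rhapsody Analysis Pipeline 1.9.1 on GRCm38 with GENCODE vM19. Per the headers, 1 library (CCl4 1) went through the pipeline on another day than the rest. The 10 genes, the gates and the pathway list were chosen with earlier results of these data known. Members were named in every gate, pathway genes when called (at most 4 per role and gate with values), and the most alike genes for each member, up to 3, of which some are not reported here.

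Counts were summed per gate and mouse and tested with edgeR 4.0.16 in R 4.3.3 (TMM scaling, filterByExpr, quasi-likelihood test, Benjamini-Hochberg adjustment, threshold 0.05). Differences between gates and zones came from joint fits with the mouse as a block. The joint fit of the gates shares the spread of a gene over all gates. The gates differ in spread, which is why the changes within a gate were fitted separately, and the joint p-values carry that limit. Doublets were handled by dropping cells in 2 or more gates, and no doublet caller was run. Leave-one-out fits assume that the lone mouse varies like the other group. The labels name separate mice but no pairing. Alternatives were DESeq2 1.42.0, library size alone, no low count filter, a replicate block, each mouse left out, doubled gates, 15% mitochondrial UMIs, thinning to 2000 UMIs, no 5% deepest cells, and, added after seeing the data, cells with no UMI of the other gates' genes. On simulated data the endothelial test recovered 69 of 100 genes changed 2-fold and 95 of 100 changed 4-fold. The stellate test recovered 48 and 91, the Kupffer test 55 and 95 and the monocyte test 30 and 78. In that order the tests made 3, 6, 10 and 8 false calls. The simulation gave every gene in every gate the same spread, so these counts describe that setting and not the real tests. Promoters are from RefSeq on GRCm38.p6.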

Additional observations from a re-analysis of the deposited data

Results flagged for a closer look

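Bmp2 was singled out because its CCl4 change differed between groups of cells by a direct test. In the joint fit of 16 sums the change in monocyte-gated cells differed from that in endothelial-gated cells by -1.64 ± 0.45 on the log2 scale (edgeR adjusted p = 0.0351). The corn oil side of that contrast held 43 and 23 monocyte-gated cells with 20 and 28 Bmp2 UMIs, and all 10 endothelial markers were detected in the gate, at 0.0127 and 0.0108% of UMIs in corn oil and 0.00904 and 0.00713% in CCl4. Their part in the difference was not tested.

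The same kind of test singled out 4 more differences with the monocyte gate. For Bmper the change differed from that of the endothelial gate by -4.80 ± 0.87 (edgeR adjusted p = 0.00481) and from that of the stellate gate by -6.64 ± 1.05 (adjusted p = 0.00215), and for Bmp4 from that of the endothelial gate by -4.30 ± 1.28 (adjusted p = 0.0489). In corn oil these rest on 12 Bmper and 5 Bmp4 UMIs, all in corn oil 1. For Bmp5 the change differed from that of the Kupffer gate (adjusted p = 0.0375) with 0 UMIs in both corn oil mice of the monocyte gate.

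Inside the endothelial gate the change of Bmp2 in pericentral-type cells differed from that in periportal-type cells by -1.28 ± 0.18 (edgeR adjusted p = 1.81e-10), with 28 and 21 pericentral-type cells in the CCl4 mice. Leaving out each mouse gave -1.42 to -1.19. The change of Bmp4 also differed between zones (adjusted p = 0.000122), with 0 UMIs in the pericentral-type cells of both CCl4 mice.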

How the results depend on the processing

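Of the 10 called changes of members, 83 of 97 values under alternatives other than leaving out a mouse kept their direction and call and 14 lost the call, and of 40 values with a mouse left out 22 kept it and 18 lost it. None of these reversed. Of 18 changes not called, 12 of 173 values became called and 4 reversed, and with a mouse left out 4 of 71 became called and 10 reversed. The cause of these differences was not tested.

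The number of genes called in the endothelial gate (726) was 1466 with DESeq2, 2302 with no low count filter, 2051 with the replicate block and 183 to 894 with a mouse left out. In the stellate gate (916) it was 609, 1577, 551 in cells with no UMI of the other gates' genes, 512 in thinned cells and 107 to 1345 with a mouse left out. In the Kupffer gate (1522) it was 873 with DESeq2, 2321 with no filter, 786 in cells free of the other gates' genes, 363 in thinned cells and 585 to 1464. In the monocyte gate (557) it was 910, 2061, 280 and 163 in that order, 1864 in the fit of all 16 sums and 0 to 1658 with a mouse left out.

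Differences of the change from the endothelial gate numbered 119 for stellate cells (613 with no filter, 6 to 119 with a mouse left out), 318 for Kupffer cells (1025 with no filter, 138 in cells free of the other gates' genes, 7 to 246) and 1495 for monocytes (2272, 682, 268 to 1806). Zone calls numbered 620 (544 to 666) and zone differences of the change 517 (227 to 435). Level calls of members numbered 86 (77 to 86).

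Apart from differences of Bmp4 and Bmper in monocytes, changes of sign were confined to values not called. The Bmp4 difference from the endothelial change in monocytes was 4.51 with doubled gates, 2.77 in cells free of the other gates' genes and -5.26 to 4.002 with a mouse left out. That of Bmper was -5.08 to 4.40 with a mouse left out, and its difference from the stellate change -7.45 to 3.21. In the Kupffer gate Smad6 was 0.17 at 15% mitochondrial UMIs and 0.0480 without the 5% deepest cells, and Acvrl1 0.0579 in thinned cells. In the monocyte gate Smad7 was -0.00917 at 15% mitochondrial UMIs. Differences from the endothelial change turned to -0.0282 for Smad7 in monocytes with library size alone, 0.0325 for Bmp5 in Kupffer cells with doubled gates, and, in cells free of the other gates' genes, 0.31 for Smad6 in stellate cells and 6.07 for Inhba in monocytes. With a mouse left out the endothelial change ran from -0.40 to 0.0536 for Bmp4, -0.0195 to 0.21 for Acvrl1 and -0.12 to 1.84 for Inhba. The Kupffer change of Smad6 ran from -0.63 to 0.74. Monocyte changes ran from -2.16 to 8.12 for Inhba, -0.92 to 0.16 for Acvrl1 and -0.48 to 2.75 for Smad7. Differences from the endothelial change ran from -0.89 to 0.49 for Inhba and -0.42 to 0.0115 for Smad6 in stellate cells, -0.73 to 0.10 for Smad6 in Kupffer cells, and -2.73 to 8.07 for Inhba, -0.80 to 0.0361 for Acvrl1 and -0.43 to 2.73 for Smad7 in monocytes. Zone differences of the change ran from -0.80 to 0.0720 for Smad6 and -0.29 to 0.88 for Inhbb.

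The equal replicate numbers of the 2 groups carry no stated pairing. Deviations of equally numbered mice correlated at 0.178, 0.0794, 0.114 and 0.189 in the endothelial, stellate, Kupffer and monocyte gates, over only 2 pairs. With the replicate block Bmp2 was called in the endothelial gate (-0.57, edgeR adjusted p = 0.0230) and in the monocyte gate (-2.34, adjusted p = 0.0489). In the stellate gate 3 of 10 members, in the Kupffer gate 4 and in the monocyte gate 5 had too few UMIs to be tested.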

Other observations

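Outside the 4 gates Inhba was also found in cells with fibroblast genes. It had 105 UMIs in 51 such cells of CCl4 1 (211 CPM) and 11 in 20 such cells of CCl4 2 (53.9 CPM). The corn oil mice had 10 and 11 such cells, and no comparison between treatments was made.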
